A study of Mus musculus with 24 samples.

Results

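The genes described here encode the proteins of the cell's ribosomes: the cytosolic set (symbols beginning Rpl or Rps) and the mitochondrial set (Mrpl or Mrps). Members were all rows annotated as protein coding with such a symbol, leaving out Rps6k kinases, binding proteins (bp1 in the name) and Gm or Rik names, which gave 171 of 54532 genes. The cytosolic set held 93 members (59 of the large and 34 of the small subunit) and the mitochondrial set 78 (49 large, 29 small). Their RNA was compared between C57BL/6J mice labelled Polr3a mutant and mice labelled Wildtype, all of which received tamoxifen at postnatal day 28 (P28). Polr3a is the gene of the catalytic subunit of RNA polymerase III. PolyA-selected RNA came from 2 tissues at P42, cerebrum and cerebellum, and from cerebrum again at P75, with 4 mutant and 4 wild type libraries each. All P75 libraries were labelled male, while each P42 group held both sexes. The labels name neither the Cre driver nor the mutation, and do not say whether wild types carried Cre or whether each library came from its own animal. The p-values therefore measure the spread between libraries, which may be technical.

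A cytosolic ribosome joins a small subunit, which reads the mRNA, to a large subunit, which forms peptide bonds; their proteins are made in the cytosol and assembled with ribosomal RNA in the nucleolus. RNA polymerase III makes the smallest ribosomal RNA of the large subunit and the transfer RNAs, while the ribosomal protein genes themselves are transcribed by RNA polymerase II. The mitochondrial ribosome is built from a separate set of nuclear-encoded proteins around mitochondrially encoded RNAs, and it translates the few respiratory chain subunits encoded in mitochondrial DNA.

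The start of many cytosolic ribosomal protein mRNAs is a cytosine followed by a run of pyrimidines, a feature through which growth signals control their translation. Windows of 15 bases on each side of the annotated start are shown for the members on which the results turn, and for Rps27, the paralogue of Rps27l, as a comparison. Capitals mark a pyrimidine run, counted from the first C of an unbroken stretch of pyrimidines (C or T) with at least 4 more after it, where that first C lies within 10 bases of the start. Where several did, the nearest is marked. The sequences are from RefSeq (GRCm38.p6), on the gene's strand, at the first listed start of each gene.
Rps27l: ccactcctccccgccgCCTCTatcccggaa
Rps27: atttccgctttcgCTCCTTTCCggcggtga
Rpl12: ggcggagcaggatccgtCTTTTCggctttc
Rps24: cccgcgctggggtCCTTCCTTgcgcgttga
Mrps10: gccctccctccacggtagagagggccatgg
Mrpl17: tactgcgcatgcgtCCTCTgagacgtgcct
These windows lie at chr9:66946071-66946100 (plus strand), chr3:90213634-90213663 (minus), chr2:32961697-32961726 (plus), chr14:24490663-24490692 (plus), chr17:47369182-47369211 (plus) and chr7:105811073-105811102 (minus). The marked run was 9 bases long in Rps27, 8 in Rps24, 6 in Rpl12 and 5 in both Rps27l and Mrpl17, and none is marked in Mrps10, whose pyrimidine stretch has its first C farther from the start.

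A promoter of 250 bases before and 50 after the start was listed for 134 members, 65 cytosolic and 69 mitochondrial. Pyrimidine runs were counted here by a looser rule than above. Any C within 10 bases of the start with at least 4 pyrimidines after it counted, also inside a longer stretch. Such a match was found in 56.9% of the cytosolic and 42% of the mitochondrial promoters, against 31.2% of 17491 promoters of protein-coding genes. By this rule Mrps10, with no marked run above, has a match. The core of the site bound by ETS factors (CCGGAAG, either strand) was in 38.5% of the cytosolic and 36.2% of the mitochondrial promoters and in 11.9% of all. The site of NRF1 (GCGCA, any base, GCGC), a regulator of nuclear genes for mitochondria, was in 7.69% and 18.8%, against 6.60% of all. That of YY1 (AAGATGGCG) was in 6.15% and 11.6%, against 1.94%. No string is contained in another, and a match is a description of the letters only. Rps27l held the ETS core and neither other string, and Mrps10 held none of the 3. The 250 bases before the start of Rps27l (chr9:66945836-66946085, plus strand) are shown because it was the cytosolic gene that changed. They hold none of the 3 strings, and its ETS match lies in the bases after the start.
Rps27l upstream: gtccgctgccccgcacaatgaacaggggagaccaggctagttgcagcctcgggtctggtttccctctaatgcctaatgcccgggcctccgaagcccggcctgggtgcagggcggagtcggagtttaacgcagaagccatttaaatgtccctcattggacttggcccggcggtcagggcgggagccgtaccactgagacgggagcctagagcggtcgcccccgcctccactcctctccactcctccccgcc

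Libraries held between 13.8 and 23.2 (in units of 1e+06) counts, and the labelled sex matched sex-linked genes in 24 of 24. Summed markers of cerebellar granule and Purkinje cells were 3008.2 to 10393.5 CPM (counts scaled to a library total of 1e+06) in the cerebellum libraries and at most 1359.2 CPM in cerebrum. Polr3a RNA had log2 fold changes of -0.14 ± 0.11 (SE) in cerebrum at P42, 0.10 ± 0.13 in cerebellum and -0.10 ± 0.09 in cerebrum at P75 (adjusted p 0.562, 0.984 and 0.542, edgeR), so its level did not separate the genotypes. The tissue was sequenced in bulk, where fewer cells of a type and less RNA per cell cannot be told apart.

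Cytosolic members took 0.568 to 1.19% of a library's counts and mitochondrial members 0.135 to 0.221%. In wild type cerebrum at P42 the median level per length was 37.0 CPM per kilobase for the 93 cytosolic members and 8.31 for the 78 mitochondrial members, using the gene lengths of the deposited tables. At P75 these medians were 51.4 and 10.2, and in P42 cerebellum 36.1 and 9.36. The P42 and P75 counts come from separate tables, so an age difference of level cannot be told apart here from a difference between the tables. Only P42 held females. Among male cerebrum wild types, the cytosolic share was 0.821 and 0.822% at P42 (wild types 1 and 3) and 0.866 to 1.11% at P75. The mitochondrial share was 0.175 and 0.170%, and 0.176 to 0.205%. The part of sex in the level differences was not tested. The highest cytosolic levels per length in all 3 wild type groups were those of Rplp1, a protein of the stalk that recruits translation factors, Rps15 and Rps3a1 of the small subunit. In P42 cerebrum Rplp1 had 304.9 ± 139.2 CPM per kilobase (SD, n = 4), Rps15 187.8 ± 73.2 and Rps3a1 186.8 ± 12.7. The wide spread of Rplp1 came with a range of 110.1 to 417.2, so the order of these 3 is not separated beyond their spread. The mitochondrial set was led in all 3 groups by Mrpl41, Mrps21 and Mrpl34, at 29.8 ± 7.16, 27.2 ± 6.62 and 21.1 ± 2.69 CPM per kilobase in P42 cerebrum, which also overlap. Both orders depend on the listed lengths. These were 499, 630 and 977 bases for Rplp1, Rps15 and Rps3a1, and 888, 739 and 607 for the mitochondrial leaders. Rpl4, listed at 2007 bases, held 147983 counts over all libraries, against 94382 for Rplp1.

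**Figure D1:**
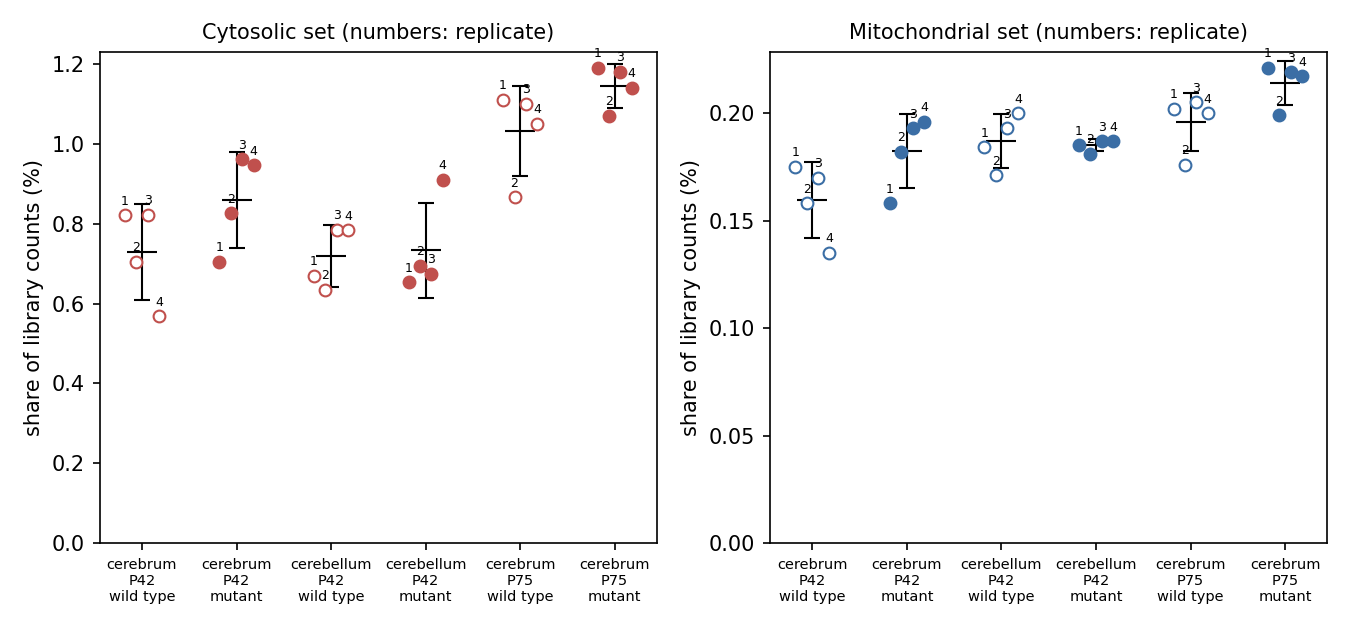
Share of each library's counts (%, vertical axes) on the cytosolic set (left) and the mitochondrial set (right) by tissue, age and genotype; each point is a library with its replicate number, open for wild type and filled for mutant, and bars give the mean ± SD of 4. The cytosolic share ran from 0.568% (wild type 4, P42 cerebrum) to 1.19% (mutant 1, P75 cerebrum), and the 2 genotypes overlapped in both panels at each tissue and age.

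Several members have paralogues with a restricted pattern in the body, and most of these were low in brain. Rpl3l, the striated muscle paralogue of Rpl3, had 0.346 ± 0.0793 CPM per kilobase in wild type P42 cerebrum, against 95.7 ± 13.6 for Rpl3 (SD, n = 4 each). Rpl10l and Rpl39l, known from testis, were listed at 0 in that group, against 58.8 ± 11.2 for Rpl10 and 18.5 ± 7.18 for Rpl39. Over all libraries of the series, a count of 0 allows a level of up to 0.129 to 0.217 CPM (3 counts of the total, counting error only). Rpl22l1 had 3.84 ± 2.17 beside 20.9 ± 1.90 for Rpl22, and Rpl7l1 8.61 ± 1.85 beside 60.5 ± 1.52 for Rpl7. The mitochondrial paralogues Mrps18a, Mrps18b and Mrps18c were closer to each other, at 7.08 ± 1.37, 3.85 ± 0.465 and 7.07 ± 1.21.

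Not every member could be tested. Genes with low counts were left out, which kept 84 cytosolic and 77 mitochondrial members in both P42 comparisons and 85 and 77 at P75. Rpl10l, Rpl13a-ps1, Rpl36-ps4, Rpl9-ps1 and Mrpl53 had 0 counts in every library. Rpl36a-ps1, Rpl36al and Rpl39l had too few counts in each comparison, Rpl3l was tested only at P42, and Rpl10-ps3 and Rpl27-ps3 only at P75. Members named as processed copies, and their parent genes, share near-identical sequence, so the split of reads among them is uncertain. The 290 rows of ribosomal pseudogenes outside the sets held 0.0260 to 0.0523% of counts.

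In cerebrum at P75, 47 days after tamoxifen, 2 of the 162 members tested rose in mutants and none fell. A gene was called when the edgeR quasi-likelihood test gave a Benjamini-Hochberg adjusted p under 0.05 over all genes tested. By that rule 14.3% of all 17523 genes were called, 7.66% higher and 6.62% lower in mutants. Of the cytosolic set 1 of 85 members (1.18%) was called, Rps27l, and of the mitochondrial set 1 of 77 (1.30%), Mrps10. At an unadjusted p under 0.05, 6 cytosolic and 4 mitochondrial members passed (7.06% and 5.19%), against 28.8% of all genes. DESeq2 called 2 cytosolic members and 1 mitochondrial member (2.35% and 1.30%, against 17.6% of all genes it tested). Scaling by total count only, which moved the median log2 fold change of all genes to 0.11, called 7 and 2 (8.24% and 2.60%, against 16.3%). With no filter on low counts edgeR called 5 and 1 (5.62% and 1.30%, against 9.62%).

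Rps27l, the paralogue of the small subunit protein Rps27 and a known target gene of p53, had 17.3, 14.3, 14.8 and 14.8 CPM in the mutants and 8.89, 9.60, 9.01 and 8.88 CPM in the wild types. Every mutant library lay above every wild type library, with mutant 1 the highest. Its log2 fold change was 0.75 ± 0.12 (SE, a 1.68-fold rise, 95% interval 0.50 to 1.0, adjusted p = 8.13e-04 by edgeR). Leaving out any 1 library gave 0.69 to 0.78, with adjusted p up to 0.00464. The gene lies on chromosome 9, 66946086 to 66949516 (mm10, plus strand).

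Its parent gene was not called. Rps27 (chromosome 3, 90212522 to 90213651, minus strand) had 101.6, 70.5, 89.2 and 99.4 CPM in mutants and 77.5, 96.2, 91.5 and 110.2 CPM in wild types. These groups overlapped, with a log2 fold change of -0.06 ± 0.12 (adjusted p = 0.800, edgeR), or 0.05 when libraries were scaled by total count only. Per length, Rps27l stood at 18.7 ± 1.63 CPM per kilobase in mutants, beside 86.5 ± 13.6 for Rps27, and at 11.1 ± 0.420 in wild types (SD, n = 4). Rps27rt, another copy annotated as protein coding, varied widely between libraries, from 13.7 to 47.1 CPM in mutants and from 10.8 to 44.9 CPM in wild types.

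Mrps10, a protein of the small mitochondrial subunit, had 33.2, 26.9, 27.4 and 29.7 CPM in mutants and 20.6, 19.9, 21.3 and 24.7 CPM in wild types. The groups did not overlap, and wild type 4 came nearest to the mutants. The log2 fold change was 0.44 ± 0.10 (SE, 1.35-fold, 95% interval 0.22 to 0.66, adjusted p = 0.0122, edgeR). Without mutant 1, the highest library, it was 0.37 with an adjusted p of 0.0507, and no mitochondrial member was then called. The gene spans 47368887 to 47381417 on chromosome 17 (plus strand).

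**Figure D2:**
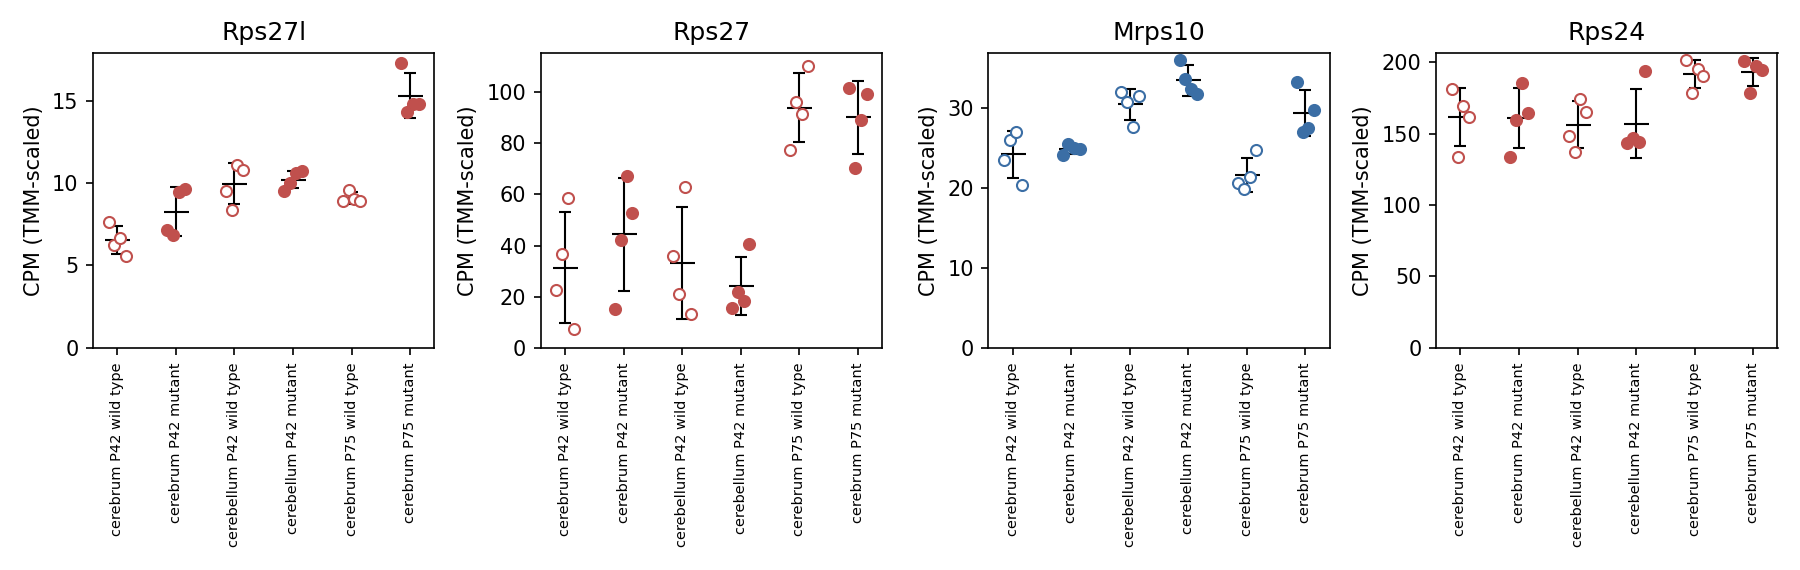
Level in CPM (vertical axes, TMM-scaled within each comparison) of Rps27l, Rps27, Mrps10 and Rps24 in the 24 libraries, open points for wild type and filled for mutant, with mean ± SD of 4. In P75 cerebrum the 4 mutants lay above the 4 wild types for Rps27l (14.3 to 17.3 against 8.88 to 9.60) and Mrps10 (26.9 to 33.2 against 19.9 to 24.7), while Rps27 and Rps24 overlapped.

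Close to the threshold stood Rpl12, which helps form the base of the ribosomal stalk. Its levels were 138.8, 140.7, 143.2 and 131.9 CPM in mutants and 129.2, 109.8, 124.1 and 116.4 CPM in wild types. These did not overlap, and the log2 fold change was 0.21 ± 0.07 with an adjusted p of 0.0599 (edgeR) and 0.0341 (DESeq2). In the authors' deposited table it had a log2 fold change of 0.21 and an adjusted p of 0.0344. That table also called Rps27l (0.74, adjusted p = 3.81e-07) and Mrps10 (0.43, adjusted p = 0.00163), and no other member at either age or in either tissue.

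Other large subunit members with small p at P75 were Rplp0, the scaffold of the stalk (0.20 ± 0.08, adjusted p = 0.0978), Rpl7a (0.49 ± 0.19, adjusted p = 0.111) and Rpl23 (0.27 ± 0.11, adjusted p = 0.113; edgeR for each). For Rpl7a the wild types spread from 19.1 to 46.4 CPM, across the mutants' 38.2 to 54.2. For Rpl23 they had 57.1 to 86.5 CPM against 80.4 to 97.1. In both genes the lowest wild type was library 2, which also had the lowest share of cytosolic counts at P75 (0.866%, against 1.05 to 1.11% in the other wild types). A second cytosolic gene passed when wild type 1 (Rpl7a, adjusted p = 0.0469), 2 (Rps27a, 0.00691) or 3 (Rpl23, 0.0427) was left out. A second mitochondrial gene, Mrps25 of the small subunit, passed without wild type 2 (-0.35, adjusted p = 0.0374), where its value with all libraries was -0.22 ± 0.13 (adjusted p = 0.300).

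Rps27a encodes a small subunit protein fused to ubiquitin, and it had the lowest log2 fold change of the cytosolic set, -0.56 ± 0.21 (adjusted p = 0.0895, edgeR). Mutants had 66.0, 53, 59.6 and 59.2 CPM, and wild types 122.1, 49.7, 67.7 and 109.9 CPM. The low value came with wild types 1 and 4, which were far above the other 6 libraries, and the difference was -0.35 without wild type 1. Fau and Rack1, which encode small subunit proteins under other symbols and are not members, had log2 fold changes of 0.10 and 0.12, neither of them called (adjusted p 0.583 and 0.292, edgeR).

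Of the mitochondrial large subunit no member was called. Mrpl17 had the smallest p, with 36.1, 37.8, 35.0 and 32.9 CPM in mutants and 28.7, 27.1, 29.6 and 33.5 CPM in wild types. Wild type 4 lay among the mutants, and the difference was 0.25 ± 0.09 (adjusted p = 0.0724, edgeR). Mrpl48 and Mrpl50 were lower in all 4 mutants than in any wild type, at 48.0 to 49.3 against 52.8 to 55.2 CPM and 27.6 to 31.1 against 31.2 to 37.1 CPM. Their differences were -0.15 ± 0.07 and -0.19 ± 0.09 (adjusted p 0.156 and 0.151). Mrps36, first described as a small subunit protein and since assigned to the 2-oxoglutarate dehydrogenase complex, had -0.22 ± 0.11 (adjusted p = 0.197).

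Over all members tested at P75, the median log2 fold change was 0.07 over 85 cytosolic members and 0.03 over 77 mitochondrial members, against 0.00 over all genes. Over the left-out libraries these medians ran from -0.01 in both sets (without wild type 2) to 0.09 and 0.06 (without mutant 2). Wild type 2 and mutant 2 had the lowest shares of both sets in their groups, so nothing is read from these shifts. The 95% interval lay within a 1.5-fold change in either direction for 75 cytosolic members (88.2%) and 75 mitochondrial members (97.4%), against 59.5% of all genes. Within 2-fold lay 82 (96.5%) and all 77 (100%), against 80.6% of all genes. The median SE was 0.10 in both sets and 0.13 over all genes, and such shares depend on precision as well as on the size of change. The 4 libraries of each genotype did not overlap for 4 cytosolic members (4.71%) and 9 mitochondrial members (11.7%), against 20.0% of all genes. The subunits were alike, with medians of 0.06 and 0.07 for cytosolic large and small members and of 0.03 and 0.02 for mitochondrial ones.

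**Figure D3:**
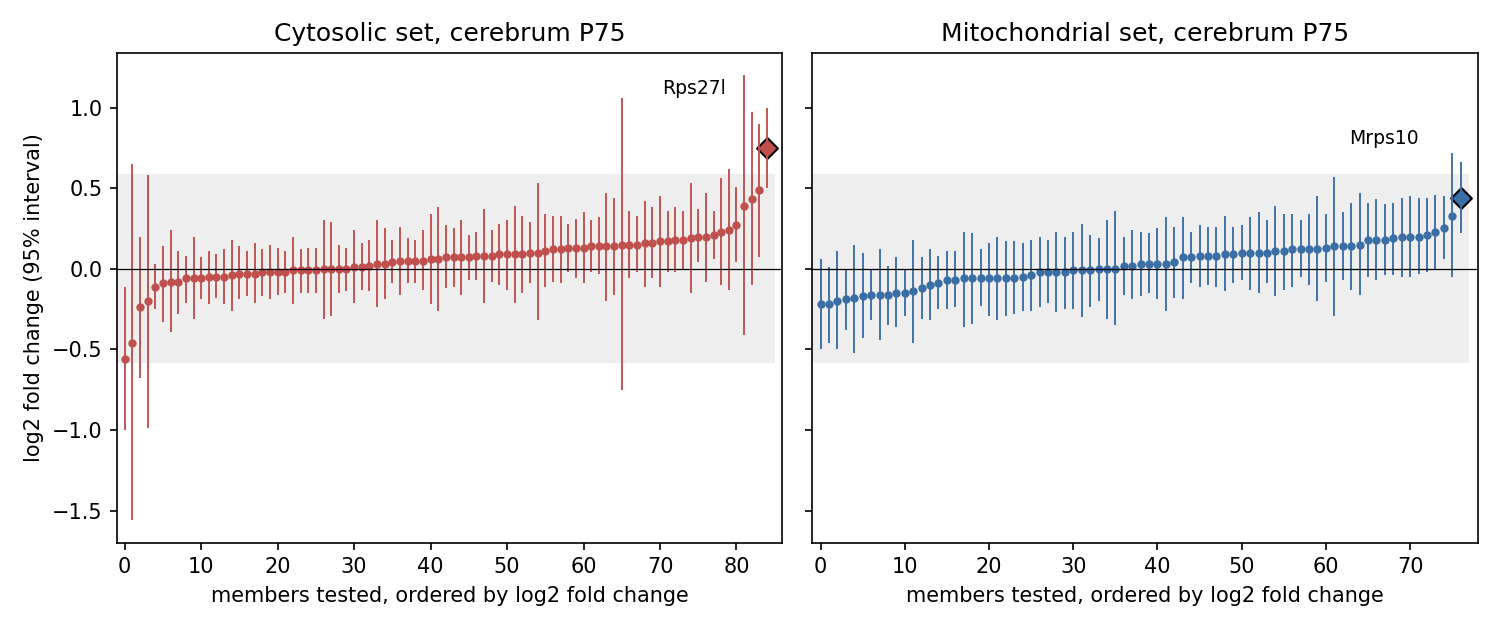
Log2 fold change of mutant against wild type with its 95% interval (vertical axis) for the 85 cytosolic (left) and 77 mitochondrial (right) members tested in P75 cerebrum, ordered by value; grey marks changes within 1.5-fold and diamonds the called genes. Rps27l at 0.75 and Mrps10 at 0.44 are the marked genes, and most intervals stay inside the grey band.

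Genes that serve the ribosome were read beside its proteins at P75, where 14.3% of all genes were called. Of 38 tested nucleolar assembly genes, 3 rose and 1 fell (median 0.12): Wdr43 (0.44 ± 0.12, adjusted p = 0.0275), Polr1e, a subunit of RNA polymerase I (0.56 ± 0.17, adjusted p = 0.0388), and Npm1, the nucleolar protein nucleophosmin (0.25 ± 0.08, adjusted p = 0.0418) rose, and Nvl (-0.31 ± 0.10, adjusted p = 0.0475) fell. Among 20 mitochondrial ribosome assembly genes only Gtpbp10, a GTPase for the large subunit, was called (0.43 ± 0.13, adjusted p = 0.0400, median of the list 0.07). None of 14 mitochondrial translation factor genes was called (median -0.03). Of 42 cytosolic translation factor genes 7 rose and 2 fell (median 0.08), among them Eif3c (0.57 ± 0.07, adjusted p = 1.88e-04) and the neuronal elongation factor Eef1a2 (-0.38 ± 0.07, adjusted p = 0.00241). Of 14 regulators of mRNAs that start with a pyrimidine run, 3 rose (median 0.08), led by Eif4ebp1, which encodes a repressor of cap-dependent translation (1.92 ± 0.18, adjusted p = 1.12e-05). All p are from edgeR over all genes tested.

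The mRNAs that the mitochondrial ribosome translates were lower at P75. They fell for 11 of the 13 protein genes of mitochondrial DNA (median -0.67), for example mt-Co2 (-0.92 ± 0.10, adjusted p = 2.64e-05, edgeR). The 75 nuclear oxidative phosphorylation genes held 0 called members by edgeR (median -0.09). Of the stress lists at P75, 13 of 21 p53 targets rose (median 0.75; Rps27l was not in the list), 21 of 23 ATF4 targets (0.95) and 20 of 20 interferon-stimulated genes (4.10). Cell type markers also differed. Of 12 microglia markers 5 rose, with summed levels of 448.0 to 824.6 CPM in mutants and 366.6 to 410.0 CPM in wild types, and of 16 cortical excitatory neuron markers 10 fell (2961.8 to 4151.6 against 4909.8 to 5327.3 CPM). The part of these cell type differences in the rise of Rps27l and Mrps10 was not tested.

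In cerebrum at P42, 14 days after tamoxifen, no member was called by edgeR or DESeq2, against 0.0165% of 18205 genes by edgeR and 1.41% of all genes by DESeq2. With no filter on low counts, however, edgeR called 12 of 89 cytosolic members (13.5%) and no mitochondrial member, against 3.83% of all genes. The members lay mostly above their wild type level, 69 of 84 cytosolic (82.1%) and 58 of 77 mitochondrial (75.3%), against 51.4% of all genes. The medians were 0.21 and 0.16, against 0.01 over all genes. At an unadjusted p under 0.05 stood 6 cytosolic and 8 mitochondrial members (7.14% and 10.4%), against 12.6% of all genes. A 95% interval within 1.5-fold was found for 42.9% of cytosolic and 58.4% of mitochondrial members, against 37.0% of all genes. Each was a lower share than at P75. The median SE was 0.18 and 0.16, against 0.21 over all genes. Other lists were also offset, with 0 called in each. Higher in mutants were 71 of 75 nuclear oxidative phosphorylation genes (median 0.27), 10 of 12 mature oligodendrocyte markers (0.56) and 20 of 22 ATF4 targets (0.59). Of the other stress lists, 14 of 21 p53 targets (0.27) and 14 of 18 interferon-stimulated genes (0.25) were higher. Lower were 11 of 12 mitochondrially encoded protein genes (-0.28) and 12 of 12 microglia markers (-0.36).

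The cytosolic share of counts was 0.705, 0.826, 0.962 and 0.947% in mutants 1 to 4 and 0.821, 0.705, 0.822 and 0.568% in wild types 1 to 4. Mutants 3 and 4 were the highest and wild type 4 the lowest, and the remaining libraries overlapped. Without mutants 3 and 4 the medians were 0.06 (cytosolic) and 0.07 (mitochondrial), and without wild type 4 they were 0.09 and 0.06. Leaving out mutant 1 gave 0.32 and 0.25. Since these libraries had the highest or lowest shares of their groups, such shifts follow from the choice of library, and nothing is read from them. Mutants 3 and 4 also had the highest summed level of 26 markers of thalamus, hypothalamus and midbrain, 1972.0 and 1855.7 CPM, against 1373.1 and 1219.5 CPM in mutants 1 and 2 and 528.3 to 806.1 CPM in wild types. All 26 of these markers passed the count filter and were higher in mutants (median 1.38, 0 called), and 14 of 16 cortical excitatory neuron markers were lower (median -0.76), with sums of 1320.6 and 1663.6 CPM in mutants 3 and 4. The sums of mutants 1 and 2 were 5517.7 and 4232.0 CPM, within the 3907.3 to 6853.0 CPM of the wild types. The part of these regional markers in the members' offset was not tested.

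**Figure D4:**
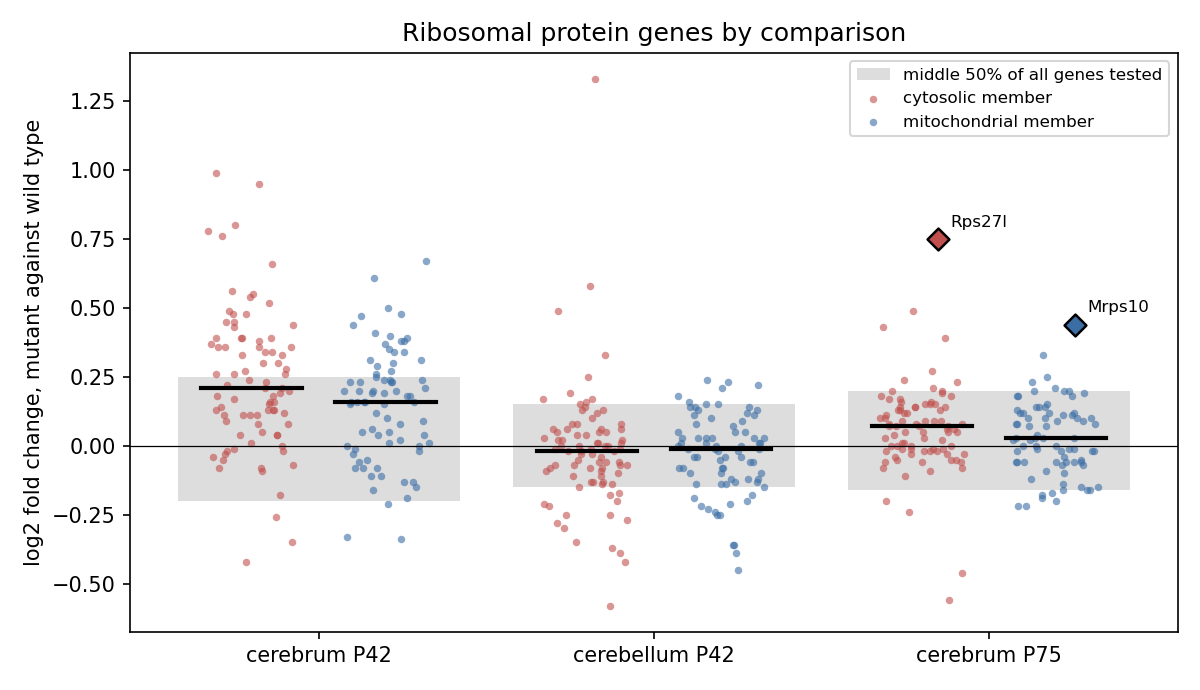
Log2 fold change of mutant against wild type (vertical axis) of each tested cytosolic and mitochondrial member in the 3 comparisons; each point is a gene, bars mark set medians, grey boxes the middle 50% of all genes tested, and diamonds the called genes. The medians were 0.21 and 0.16 in P42 cerebrum, -0.02 and -0.01 in P42 cerebellum, and 0.07 and 0.03 in P75 cerebrum, where Rps27l and Mrps10 are marked.

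The smallest p of either set in P42 cerebrum was that of Mrpl14, a large subunit protein at the interface with the small subunit. Mutants had 8.16, 10.7, 11.8 and 12.8 CPM and wild types 7.25, 6.92, 7.36 and 5.72 CPM. The groups did not overlap, and the difference of 0.67 ± 0.19 had an adjusted p of 0.345 (edgeR). Mrpl10, Mrpl15 and Mrpl55, also of the large subunit, were the other members whose groups did not overlap, together 4 of 77 mitochondrial members (5.19%) and 0 of 84 cytosolic members, against 6.41% of all genes. The highest cytosolic values were those of the Rpl9 copy Rpl9-ps6 (0.99 ± 0.39, adjusted p = 0.380) and the small subunit gene Rps28 (0.95 ± 0.41, adjusted p = 0.389). Rps28 had 19.8, 42.9, 45.5 and 42.5 CPM in mutants and 37.4, 10.4, 27.9 and 12.1 CPM in wild types, so mutant 1 lay among the wild types. The lowest was Rps12 of the small subunit, with 52.0, 41.2, 41.8 and 38.1 CPM in mutants and 46.7, 66.8, 45.7 and 76.6 CPM in wild types. Its groups overlapped through mutant 1, and the difference was -0.42 ± 0.18 (adjusted p = 0.394).

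The genes called at P75 were not called at P42. Rps27l in P42 cerebrum had 7.12, 6.86, 9.44 and 9.63 CPM in mutants and 7.65, 6.25, 6.67 and 5.57 CPM in wild types. Mutants 3 and 4 were again the highest, mutants 1 and 2 overlapped the wild types, and the difference was 0.34 ± 0.19 (adjusted p = 0.456, edgeR). Mrps10 had 24.1 to 25.5 CPM in mutants and 20.4 to 26.9 CPM in wild types (0.04 ± 0.13, adjusted p = 0.904). Counts of Rps27 and its copy Rps27rt moved in opposite directions between some libraries: Rps27 had 15.1 CPM and Rps27rt 64.0 CPM in mutant 1, against 58.7 and 16.2 CPM in wild type 3.

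In cerebellum at P42 no member was called by edgeR or DESeq2, against 0.0114% of 17616 genes by edgeR and 0.233% of all genes by DESeq2. The medians were -0.02 for 84 cytosolic and -0.01 for 77 mitochondrial members, against 0.01 over all genes, and 2 members of each set had an unadjusted p under 0.05 (2.38% and 2.60%, against 4.65%). The 95% interval lay within 1.5-fold for 78.6% and 85.7% of members, against 44.7% of all genes. The median SE was 0.15 and 0.14, against 0.21 over all genes. Rps27l had 9.54, 10, 10.6 and 10.7 CPM in mutants and 9.52, 8.39, 11.1 and 10.8 CPM in wild types, which overlapped. Mrps10 had 31.7 to 36.0 CPM in mutants and 27.6 to 31.9 CPM in wild types, overlapping only at their edge (0.14 ± 0.11, adjusted p = 0.973, edgeR). The cytosolic share was 0.910% in mutant 4 and 0.654 to 0.695% in the other mutants, around the 0.635 to 0.785% of the wild types.

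The widest difference in cerebellum was that of the large subunit gene Rpl24, at very low counts. Over all libraries it held 318 counts, against 29905 for Rpl23 and 59576 for Rpl26. Whether its reads were lost or assigned to other rows was not tested, so its true level is uncertain. Mutants had 1.62, 1.06, 1.71 and 1.06 CPM and wild types 0.286, 0.555, 0.431 and 0.764 CPM. These did not overlap, with a log2 fold change of 1.33 ± 0.40 and an adjusted p of 0.967 (edgeR). Rps27rt and Rps15a were the other cytosolic members with no overlap, together 3 of 84 (3.57%) against 3.43% of all genes, and Mrpl48 the mitochondrial one (1.30%). Mrpl48 had 45.2 to 49.2 CPM in mutants and 56.1 to 56.9 CPM in wild types (-0.25 ± 0.09, adjusted p = 0.967), the same order of groups as in P75 cerebrum. In P42 cerebrum its groups overlapped, at 39.8 to 50.5 against 45.7 to 49.8 CPM. Choroid plexus and ependymal markers were lower in the cerebellum mutants for 15 of 15 genes (median -1.11, 0 called). Their sums were 156.0 to 1875.2 CPM in mutants, against 2448.0 to 3723.8 CPM in wild types. Blood markers were lower for 6 of 6 (median -2.56) and ATF4 targets higher for 22 of 22 (median 0.57), with 0 called in each. The part of these lists in the members' values was not tested.

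The differences between the comparisons were tested as interactions over 16 libraries each. Between cerebrum and cerebellum at P42 no member was called, and neither was any other gene by edgeR (0% of 19614). The medians of cerebrum minus cerebellum were 0.17 for cytosolic and 0.15 for mitochondrial members, against 0.00 over all genes, with 1 cytosolic and 5 mitochondrial members at an unadjusted p under 0.05 (1.18% and 6.49%, against 6.18%). Mrpl14 had the smallest p among members (0.83 ± 0.29, adjusted p = 0.732). Without P42 cerebrum mutants 3 and 4 the medians were 0.05 and 0.06. DESeq2 called no member either, against 0.0357% of all genes. With no filter edgeR called 1 cytosolic member (1.12%, against 0.762% of all genes).

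Between the ages in cerebrum, P75 minus P42, no member was called by edgeR or DESeq2. Of all genes, edgeR called 1.36% of 19273 and DESeq2 3.48%. The P75 libraries were all male and the P42 groups held both sexes. In this fit a genotype effect that differs by sex cannot be told apart from one that differs by age. The medians were -0.16 for cytosolic and -0.11 for mitochondrial members, against 0.01 over all genes, and 3 members of each set had an unadjusted p under 0.05 (3.45% and 3.90%, against 14.1%). Without P42 mutants 3 and 4 the medians were -0.04 and -0.03. Without P42 mutant 1, 3 cytosolic members and 1 mitochondrial member were called (3.45% and 1.30%, against 5.92% of all genes). With no filter 6 cytosolic members and no mitochondrial member were called (6.74% and 0%, against 3.19% of all genes). For Rps27l the interaction was 0.41 ± 0.20 (adjusted p = 0.380), so its rise at P75 was not shown to differ from the smaller value at P42. Mrps10 had 0.40 ± 0.16 (adjusted p = 0.245), Rps27a -0.92 ± 0.36 (adjusted p = 0.251) and Rps12 0.50 ± 0.20 (adjusted p = 0.257). Among mitochondrial members the smallest p with a negative value were those of Mrpl34 (-0.58 ± 0.24, adjusted p = 0.271) and Mrps36 (-0.51 ± 0.21, adjusted p = 0.273).

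One member lies next to the mutated gene. In the tables' coordinates (mm10) Rps24 occupies chromosome 14 from 24487125 to 24496959 on the plus strand, and Polr3a 24448696 to 24487058 on the minus strand, with 66 bases between the gene intervals. The RefSeq start of Rps24 used above lies farther from Polr3a, inside this interval (window 24490663 to 24490692). Rps24, a small subunit protein, had 201.2, 178.7, 197.5 and 194.8 CPM in P75 mutants and 201.8, 178.6, 195.4 and 190.5 CPM in wild types. The groups overlapped throughout, with a log2 fold change of 0.01 ± 0.07 (95% interval -0.13 to 0.16, adjusted p = 0.940, edgeR). At P42 the values were -0.00 ± 0.14 in cerebrum (adjusted p = 0.998) and -0.04 ± 0.13 in cerebellum (adjusted p = 1.0). In all 3 comparisons the sign of these near-zero values changed under some alternative settings.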

How the data were processed

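The authors deposited gene tables of read counts, whole numbers with no scaling, one for P42 and one for P75, and a table per comparison with a log2 fold change, a p-value and an adjusted p-value per gene. HISAT2, DESeq2 and mm10 are named in the submitters' processing notes, without versions; for the read counter and annotation the sources used here give no name. Counts were tested in R 4.3.3 with edgeR 4.0.16 (filterByExpr with a minimum count of 10, TMM scaling, quasi-likelihood F test, two-sided, Benjamini-Hochberg over all genes), 4 against 4 libraries, with sex as a covariate at P42; interactions used 16 libraries and sex. CPM use TMM-scaled totals within a comparison. The test was checked on simulated counts. Alternatives were DESeq2 1.42.0, other scalings and filters, a replicate block, leaving out the sex term, and leaving out libraries.

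The members, lists and tests were chosen with earlier results of these data known. Named genes were the 6 smallest p per set and comparison, called members where at most 10, the 2 highest and 2 lowest values above 1 CPM, the 3 smallest p per set and interaction, the 3 highest levels per length, paralogue pairs, Rps24 and Polr3a; Fau, Rack1, members without overlap, and up to 4 genes per list with the smallest p were named beside them. No libraries were duplicates: counts of each pair within a group differed by at least 3.92 times sampling noise (chi-square per degree of freedom). A result on 1 further gene is not reported here.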

Additional observations from a re-analysis of the deposited data

Results flagged for a closer look

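In groups of 4 libraries, a library was singled out where its gap to the nearest other was above Dixon's 95% critical value as a share of the group's range; 8 of 124 groups met this, and chance gives about 1 in 20. In cerebellum, mutant 4 was high in the cytosolic share of counts (0.910%, others 0.654 to 0.695%) and in Rps24 (193.6 CPM, others 143.2 to 147.1). Wild type 1 was low in Mrps12, a protein of the decoding centre (21.6 CPM, others 28.8 to 29.3), and wild type 2 in Mrps34 of the small mitochondrial subunit (14.5 CPM, others 18.5 to 19.3). In cerebrum at P42, mutant 1 was low in Rps28 (19.8 CPM, others 42.5 to 45.5). In cerebrum at P75, mutant 1 was high in Rps27l (17.3 CPM, others 14.3 to 14.8), wild type 2 was low in Mrpl52 of the large mitochondrial subunit (14.3 CPM, others 18.2 to 18.9), and mutant 4 had a ratio of cytosolic to mitochondrial counts of 5.25, where the others had 5.38 to 5.39. Without mutant 1 the P75 difference of Rps27l was 0.69, against 0.75 with it.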

How the results depend on the processing

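The calls of Rps27l and Mrps10 at P75 held under DESeq2, both other scalings, both other filters and the block, and Mrps10 was lost only without mutant 1 (adjusted p = 0.0507). The number of called cytosolic members at P75 was 1, but 2 with DESeq2, 7 with scaling by library size only, 5 with no filter (of all genes 14.3%, 17.6%, 16.3% and 9.62%), and 1 to 2 over the left-out libraries. The mitochondrial number was 1, but 2 with library size only and 0 to 2 over the left-out libraries. Scaling by library size only also moved the median of all genes at P75 from 0.00 to 0.11, and that of the mitochondrial set to 0.13. With no filter 12 cytosolic members were called in P42 cerebrum, 1 in the tissue interaction and 6 in the age interaction (13.5%, 1.12% and 6.74%, against 3.83%, 0.762% and 3.19% of all genes). Over the left-out libraries the age interaction called 0 to 3 cytosolic and 0 to 1 mitochondrial members, the highest without P42 mutant 1, where 5.92% of all genes were called. The causes were not tested.

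Replicate numbers were not taken to pair the libraries. The correlations of same-numbered deviations ran from -0.40 to 0.28, and at P75 from 0.04 to 0.19. At P75, however, 4 of 4 mutants correlated best with their own number. The cytosolic share there was 1.19, 1.07, 1.18 and 1.14% in mutants 1 to 4. In wild types 1 to 4 it was 1.11, 0.866, 1.10 and 1.05%, the same order of numbers. A pairing at P75 is therefore not excluded. With the replicate block 9 cytosolic members were called at P75 (10.6%, against 20.2% of all genes), with no other call changed among the sets' counts.

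The values that changed sign were those of Rps24, Rps27 and Rps27l, none of them called in those comparisons. Rps24 in P42 cerebrum (main value -0.00) was 0.07 with library size only, 0.01 with no filter, and -0.08 to 0.11 over left-out libraries. In cerebellum it was 0.09 with the replicate block, 0.01 with no sex term, and -0.11 to 0.03 over left-out libraries. At P75 it was -0.02 to 0.05 over left-out libraries. Rps27 (main values 0.56, -0.37 and -0.06) was -0.08 in P42 cerebrum without mutants 3 and 4. In cerebellum it was 0.16 with the replicate block and -1.09 to 0.08 over left-out libraries. At P75 it was 0.05 with library size only and -0.14 to 0.05 over left-out libraries. Rps27l in cerebellum (main value 0.00) was -0.01 with library size only and no filter, -0.00 with 1 CPM in 4 libraries, and -0.06 to 0.07 over left-out libraries.

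With 4 libraries a group, differences between library totals (13.8 to 23.2, in units of 1e+06) and the spread between libraries limit the precision, most in P42 cerebrum. Members near 1 CPM, such as Rpl24, rest on few counts.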
